A study of Mus musculus with 6 samples.

Results

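The neuregulins and the ErbB receptors were followed in single-nucleus RNA sequencing of mouse brain. The 7 genes were taken by symbol from the 32285 genes of the count matrices, and all 7 were found: the ligand genes Nrg1, Nrg2 and Nrg3 and the receptor genes Egfr, Erbb2, Erbb3 and Erbb4. C57BL/6 S-56 mice received lysophosphatidic acid (LPA), a signalling lipid of blood, in the right lateral ventricle at P7 as a model of post-hemorrhagic hydrocephalus, or the 0.01% bovine serum albumin that also carried the LPA (vehicle). The sources used here name no transgene or deletion in either group. Brains were collected at P15 without olfactory bulbs and cerebellum, NeuN-negative nuclei were sorted, and 3 LPA and 3 vehicle libraries were made, each from 1 brain. The question was which cell types held each gene and whether its level differed after LPA once the oligodendrocyte stages were kept apart.

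Neuregulins are membrane-anchored or shed proteins with an EGF-like domain that binds ErbB3 or ErbB4. EGFR binds EGF, TGF-alpha and related ligands, while ErbB2 has no known ligand of its own and signals as the partner of another receptor, and ErbB3 has very weak kinase activity and depends on its partner's kinase. In the nervous system, neuregulin signalling is known for its control of Schwann cell myelination, for roles in oligodendrocyte and astrocyte development, and for ErbB4 in inhibitory interneurons.

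The libraries held 8639 to 12894 barcodes and 48852970 to 65688644 unique molecular identifiers (UMIs), of which 87.7% to 91.9% of barcodes passed the filters, with a median of 3732 to 4578 UMIs per kept nucleus. Of the 57443 kept nuclei, 8340 stayed unnamed. The others were given a name from marker genes, which stands for "like" that cell type, or were called by their leading gene where no marker list named them. Marker genes were higher inside the named group than in all other nuclei for 7 of 8 markers of newly formed oligodendrocytes, 6 of 9 of mature oligodendrocytes, 11 of 12 of meningeal cells and every marker of the other groups tested. The sort had not removed all neurons: excitatory, striatal, other inhibitory and other neurons were still found, at 1123, 2454, 1400 and 8208 nuclei. Of 61635 distinct barcodes, 708 were in more than 1 library. Among them 235 were in all 6 libraries, with a median of 788 UMIs, and only 22 of their 1410 entries passed the filters.

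UMIs were summed per library and cell type and given as counts per 1000000 UMIs of that sum (CPM), as mean ± SD of 3 libraries. In such sums, fewer nuclei with a transcript and less RNA per nucleus cannot be told apart. Differences are log2 fold changes of LPA over vehicle from edgeR's quasi-likelihood test over all genes of the cell type, with Benjamini-Hochberg adjusted p. A gene was called at an adjusted p under 0.05 and an absolute log2 fold change of at least 0.25. The p-values measure the spread between these libraries.

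The receptors are paralogs, so reads must separate them. A short exonic stretch that codes for the catalytic loop of the kinase is shown, since it is among the most alike parts of these genes, from mm10 with the GENCODE M21 annotation. It is written 5′ to 3′ on the coding strand, and capitals mark the bases that are not the same in all 4 genes.
Egfr, chr11:16904338-16904361, plus strand, exon 21 of 28: caCCgTgaCTtGgcAGCcAgGaaT
Erbb2, chr11:98434247-98434270, plus strand, exon 21 of 27: caCAgGgaCCtAgcTGCcCgAaaC
Erbb3, chr10:128572533-128572556, minus strand, exon 21 of 28: caTAgGgaCCtTgcGCTcCgGaaT
Erbb4, chr1:68080739-68080762, minus strand, exon 21 of 28: caTCgGgaTCtGgcAGCcCgCaaT
Even here 12 of 24 bases were not shared by all 4, and pairs of receptors differed at 6 bases (Egfr and Erbb4) to 9 bases (Egfr and Erbb3). The genes also differ in length, which matters because intronic reads were counted. Nrg1 (chr8:31814551-32884029), Nrg3 (chr14:38368952-39473088) and Erbb4 (chr1:68032186-69108059) span 1069.5, 1104.1 and 1075.9 kb. Nrg2 spans 179.7 kb and Egfr (chr11:16752203-16918158) 166.0 kb, whereas Erbb2 (chr11:98412470-98437716) and Erbb3 (chr10:128567523-128589652) span only 25.2 and 22.1 kb. Levels of different genes are therefore set against each other only per kb of gene. Antisense genes overlap Nrg3 (Nrg3os, Gm20641, Gm20642), Egfr (Egfros) and Nrg2 (4930471G03Rik), and the protein-coding gene Mien1 overlaps Erbb2 on the opposite strand. Whether the counting used strand is not given in the sources used here, so their reads may be mixed. The sense-intronic gene Gm16076 overlaps Erbb4 on the same strand, where strand cannot separate reads.

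**Figure D1:**
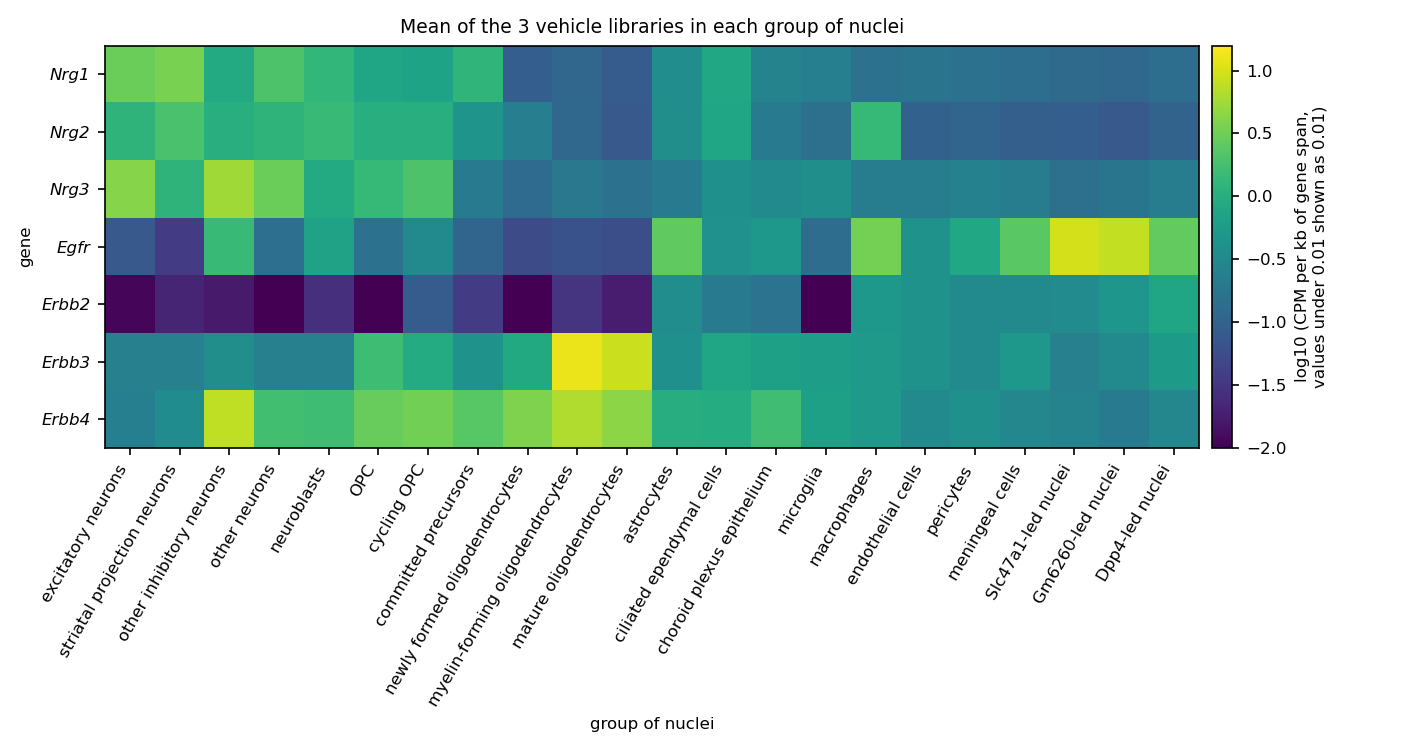
Level of each of the 7 genes (1 line of cells each) in each group of nuclei (1 column each) as the mean of the 3 vehicle libraries, colored by log10 of CPM per kb of gene. Nrg1 and Nrg3 were highest in neurons, Egfr in Slc47a1-led and Gm6260-led nuclei, and Erbb3 in myelin-forming and mature oligodendrocytes.

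Nrg1, which has many isoforms and is the best-studied neuregulin, was most abundant in vehicle libraries in striatal projection neurons, at 3838.5 ± 216 CPM, and excitatory neurons, at 3219.5 ± 238 CPM. Neurons, although reduced by the sort and counted here with neuroblasts, held 71.0% of all Nrg1 UMIs of the vehicle libraries, against 6.82% for the pooled oligodendrocyte lineage. Outside neurons and neuroblasts (1424.7 ± 418 CPM), the highest level was that of committed oligodendrocyte precursors, at 1314.8 ± 126 CPM. Ciliated ependymal cells (869.6 ± 63.9 CPM) and oligodendrocyte precursor cells (OPC, 842.2 ± 10.7 CPM) followed, and these neighbors did not differ beyond their spread.

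Nrg2 and Nrg3, which also encode EGF-domain ligands, had other orders. Nrg3 was highest in other inhibitory neurons, at 6146 ± 652 CPM, and among glia in cycling OPC (2241 ± 552 CPM) and OPC (1538 ± 122 CPM). Nrg2 was highest in striatal projection neurons (343.4 ± 15.8 CPM) and neuroblasts (267.8 ± 8.85 CPM). Macrophages came next for Nrg2 at 247.7 ± 134 CPM with libraries from 140 to 397 CPM, so their place in the order is not resolved. OPC held 186.0 ± 7.0 CPM of Nrg2. Neurons with neuroblasts held 64.9% of the Nrg2 UMIs and 75.9% of the Nrg3 UMIs.

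Because neuronal RNA can be free in a droplet, the ligands were set beside 12 neuronal RNAs (such as Snap25, Syt1 and Meg3). Each was given as a percentage of its own level in neurons, neuroblasts included. In vehicle OPC the median of the 12 was 11.9%, while Nrg1 stood at 35.8%, Nrg2 at 77.8% and Nrg3 at 46.9%. The highest of the 12 stood at 50.2% there. At or above Nrg1 and Nrg3 stood 1 of 12 each, and at or above Nrg2 0 of 12. In committed precursors Nrg1 stood at 55.9% against a median of 4.99%, and none of the 12 reached it. In newly formed, myelin-forming and mature oligodendrocytes Nrg1 stood at 4.13%, 5.13% and 3.83% against medians of 3.99%, 3.89% and 4.19%, with 6, 5 and 7 of the 12 neuronal RNAs at or above it, so the low Nrg1 level there lay within their range. For Nrg3 in astrocytes and ependymal cells, most or all of the 12 were at or above it. The part of free neuronal RNA in those levels was not tested. In ependymal cells Nrg1 stood at 37.0%, with 1 of 12 at or above it.

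Of the receptors, Egfr, the receptor of EGF and TGF-alpha, was highest in the Slc47a1-led nuclei, at 1657 ± 36.1 CPM, and the Gm6260-led nuclei, at 1334 ± 63.1 CPM. Macrophages (569 ± 190 CPM), Dpp4-led nuclei (454 ± 49.2 CPM), astrocytes (438 ± 29.8 CPM) and meningeal cells (405 ± 29.5 CPM) formed a second tier whose ranges met. Astrocytes, being numerous, held 28.9% of the Egfr UMIs. In OPC the level was 26.2 ± 6.87 CPM and in mature oligodendrocytes 9.83 ± 1.12 CPM.

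Erbb2 was the least detected receptor. It reached 19.7 ± 9.06 CPM in Dpp4-led nuclei, on 12 UMIs over the 3 vehicle libraries. Macrophages (12.8 ± 11.2 CPM, 2 UMIs), Gm6260-led nuclei (12.2 ± 4.56 CPM, 12 UMIs) and endothelial cells (11.2 ± 3.54 CPM, 17 UMIs) followed. Their ranges met, so this order is not resolved. Astrocytes, at 9.44 ± 0.71 CPM, held 34.5% of the Erbb2 UMIs. In OPC Erbb2 stood at 0.21 ± 0.36 CPM. At this depth Erbb2 passed the filter on low counts in astrocytes and meningeal cells only.

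Erbb3 had the narrowest pattern. Myelin-forming oligodendrocytes held 284.9 ± 30.3 CPM and mature oligodendrocytes 196.7 ± 17.3 CPM, and the next cell type, OPC, held 35.5 ± 2.6 CPM. The oligodendrocyte lineage held 70.9% of all Erbb3 UMIs. Erbb4, the receptor that binds all neuregulins and has an active kinase, was broader: 8451 ± 482 CPM in other inhibitory neurons, 7049 ± 274 CPM in myelin-forming oligodendrocytes, 4788 ± 236 CPM in mature oligodendrocytes, 1757 ± 245 CPM in choroid plexus epithelium and 1064 ± 25 CPM in astrocytes. The lineage held 45.0% of its UMIs and neurons with neuroblasts 28.7%. Per kb of gene, Erbb3 stood at 12.9 CPM in myelin-forming oligodendrocytes.

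**Figure D2:**
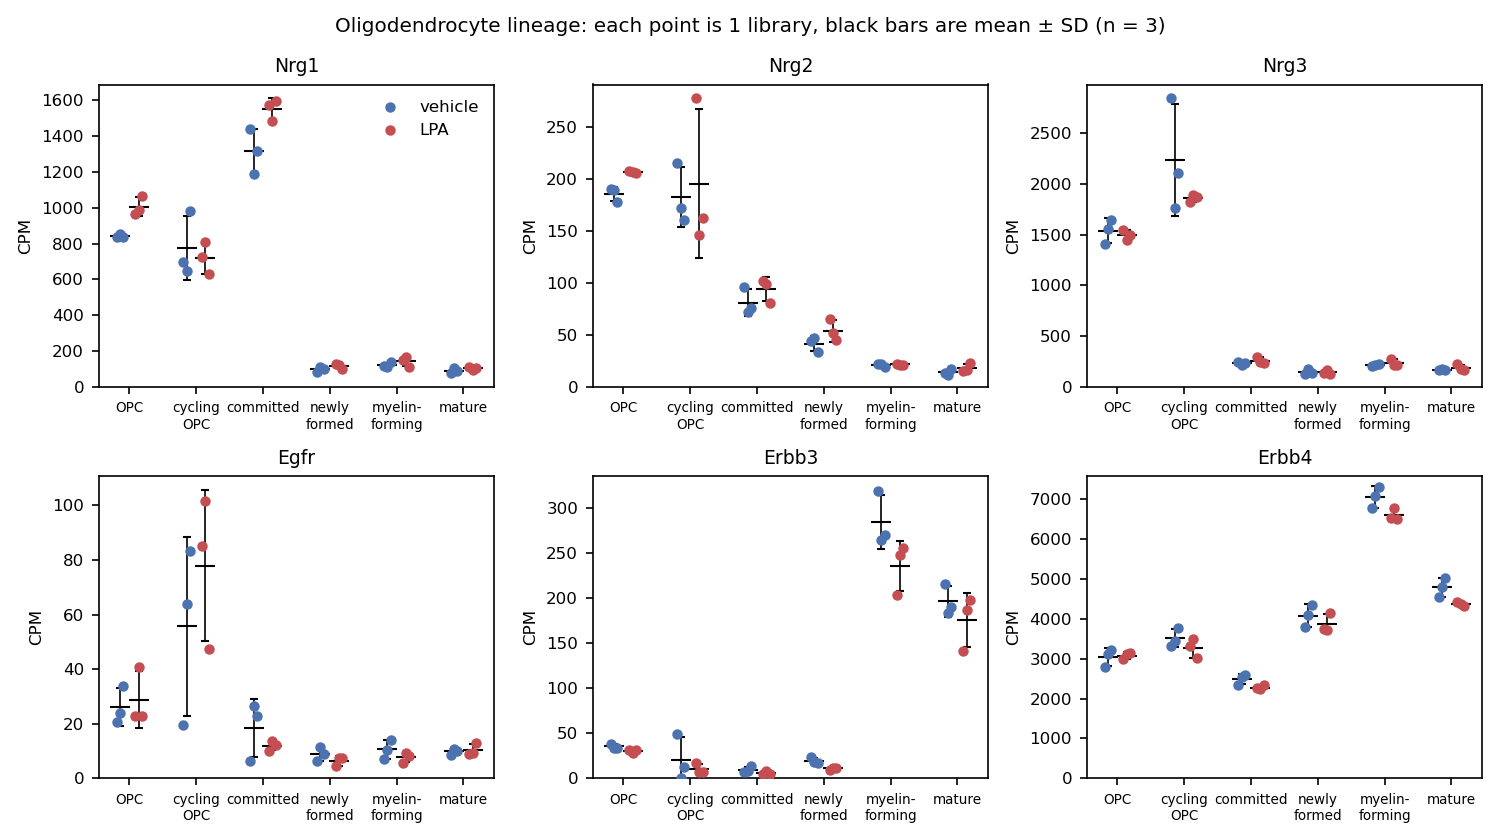
CPM of Nrg1, Nrg2, Nrg3, Egfr, Erbb3 and Erbb4 in the 6 oligodendrocyte stages, 1 point per library, with LPA and vehicle in separate colors and black bars for mean ± SD. Nrg1 peaks in committed precursors and Erbb3 and Erbb4 in myelin-forming oligodendrocytes in both groups.

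Along the oligodendrocyte lineage the ligands were highest in precursors, and Erbb3 and Erbb4 in myelin-forming oligodendrocytes. The stages were clustered without the 7 genes, without the pathway genes and without the stage markers, so the levels of the 7 were not used directly to form them. Overlapping antisense genes such as Nrg3os and Egfros were not on the lists left out. In vehicle libraries Nrg3 was 6.56-fold higher in OPC than in committed precursors. Nrg1 instead was 1.56-fold higher in committed precursors than in OPC, and then 13.5-fold lower in newly formed oligodendrocytes. Nrg2 was 2.29-fold higher in OPC than in committed precursors. On the receptor side, Erbb3 was 14.7-fold higher in myelin-forming than in newly formed oligodendrocytes and Erbb4 1.73-fold higher. From myelin-forming to mature oligodendrocytes Erbb4 was 1.47-fold lower. For each of these steps the ranges of the 3 libraries did not overlap. They are levels between groups of nuclei from the same libraries and carry no test.

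After LPA, 7 of 118 tested pairs of a gene and a cell type were called over 22 cell types, in which 1.10% of all such pairs over all genes were called. When all oligodendrocyte stages were pooled, a choice added after the data were seen, the ligands were higher and Erbb3 was lower in the LPA libraries. Pooled Nrg1 was 530, 538 and 507 CPM in LPA libraries and 317, 313 and 312 CPM in vehicle libraries, with no overlap (log2 fold change 0.72, SE 0.06, adjusted p = 1.08e-05). Pooled Nrg2 was 79.8, 78.4 and 67.7 against 51.1, 49.5 and 43.0 CPM (0.64, SE 0.08, adjusted p = 6.45e-05). Pooled Nrg3 was 528, 488 and 430 against 343, 382 and 351 CPM (0.41, SE 0.07, adjusted p = 0.00158). All 3 ligands were thus separated between the groups in every library. Pooled Erbb3 was 90.4, 105 and 119 against 165, 139 and 150 CPM (-0.54, SE 0.09, adjusted p = 0.000904). Pooled Erbb4 was 4072, 4128 and 4275 against 4531, 4767 and 5054 CPM (-0.22, adjusted p = 0.0155), which is under the size limit. So 4 of the 6 genes tested were called in the pooled lineage, where 11.7% of all genes were called, and Egfr was not (0.12, adjusted p = 0.743).

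Within the stages none of these calls was seen. Of 35 pairs of a gene and a stage, edgeR called 0, with 11 at an unadjusted p under 0.05, and DESeq2 called 0. The background was low as well: the share of all genes called was 0.159% in OPC, 0% in cycling OPC (0 of 3356 genes, 182 at an unadjusted p under 0.05, 0 by DESeq2), 0.469% in committed precursors, 0.0810% in newly formed, 0.230% in myelin-forming and 0.892% in mature oligodendrocytes. Nrg1 in OPC was 967, 986 and 1066 CPM after LPA and 837, 854 and 835 CPM after vehicle. Those groups did not overlap, but the difference was smaller than in the pooled lineage (0.28, 95% interval 0.14 to 0.42, adjusted p = 0.0958). In committed precursors Nrg1 was 1570, 1481 and 1598 against 1441, 1189 and 1314 CPM, again without overlap (0.23, interval 0.08 to 0.38, adjusted p = 0.229). In the 3 later stages its log2 fold change was 0.19 to 0.29 and in cycling OPC -0.11.

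Nrg2, Nrg3 and Erbb4 differed less within each stage than in the pooled lineage, while Erbb3 differed more in 2 stages. Nrg2 in OPC was 208, 207 and 206 against 190, 190 and 178 CPM (0.18, adjusted p = 0.601). Nrg3 in OPC differed by -0.02, with an interval of -0.15 to 0.12. Erbb3 in myelin-forming oligodendrocytes was 204, 249 and 256 against 320, 265 and 270 CPM, with no overlap (-0.25, interval -0.43 to -0.07, adjusted p = 0.398). In newly formed oligodendrocytes Erbb3 was 8.86, 12.01 and 11.95 against 23.5, 17.8 and 16.7 CPM (-0.76, interval -1.28 to -0.25, adjusted p = 0.641), and in committed precursors it differed by -0.72 (interval -1.54 to 0.09, adjusted p = 0.626). Erbb4 in mature oligodendrocytes was 4414, 4358 and 4316 against 4544, 4807 and 5014 CPM (-0.12, adjusted p = 0.212), and in the other stages it differed by -0.14 to 0.04.

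The mix of stages also differed between the groups. OPC made up 27.9%, 29.6% and 25.3% of lineage nuclei in LPA libraries and 17.4%, 19.3% and 14.6% in vehicle libraries. Committed precursors made up 17.2%, 18.8% and 18.3% against 12.6%, 11.6% and 12.3%. Mature oligodendrocytes made up 27.2%, 20.2% and 22.4% against 32.6%, 35.4% and 37.1%. Early stages, rich in ligand transcripts, thus had larger shares after LPA, and the mature stage a smaller one, with no overlap. For 5 of the 6 stages the two-sided exact permutation test gave p = 0.1, the smallest that 3 against 3 libraries allow, and for newly formed oligodendrocytes p = 0.6. The split between the last stages depended on the clustering: the difference in the mature share was -11.8 percentage points, but -7.63 without doublet calls and -7.61 at a finer resolution, while that of the myelin-forming share was -3.90, -7.72 and -8.10.

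To put a size on this, the pooled level of each LPA library was rebuilt with every stage held at its vehicle mean level, keeping only the library's own mix of stage sums, at the main clustering alone. The log2 difference was then 0.51 for Nrg1, where 0.74 was observed, and 0.42 for Nrg3, where 0.43 was observed. For Nrg2 it was 0.47 of 0.65, for Erbb3 -0.29 of -0.53 and for Erbb4 -0.11 of -0.20. With the mix held at the vehicle mean and the library's own levels kept, 0.23 remained for Nrg1, 0.21 for Nrg2, 0.02 for Nrg3, -0.23 for Erbb3 and -0.10 for Erbb4. In this recombination the mix gave nearly the pooled Nrg3 difference and the larger portion for Nrg1 and Nrg2. It carries no interval or test, and whether the mix caused the pooled differences was not tested.

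**Figure D3:**
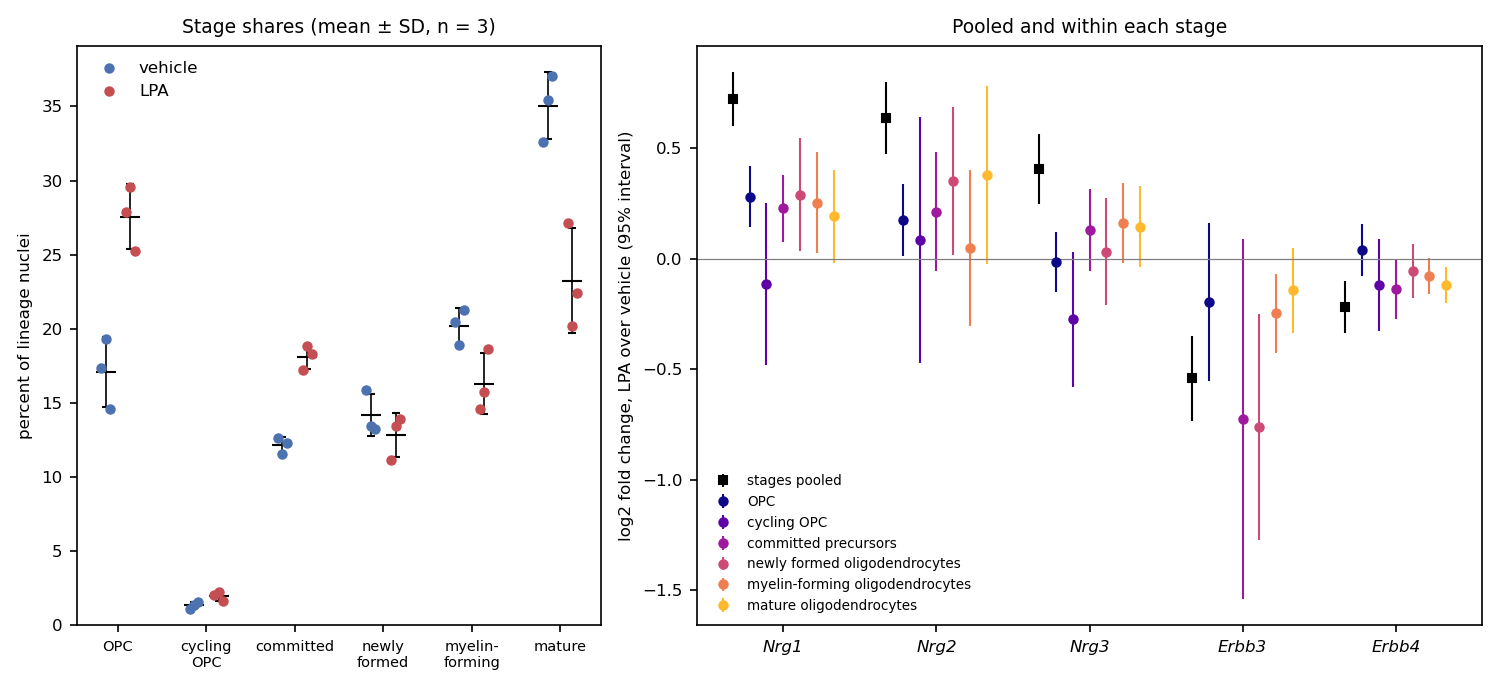
Left, share of lineage nuclei in each stage in percent, 1 point per library, with bars for mean ± SD. Right, log2 fold change of LPA over vehicle with its 95% interval, for the pooled lineage and for each stage. The pooled differences of Nrg1, Nrg2 and Nrg3 lie farther from 0 than those of each stage.

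In astrocytes, 3 of the 7 genes were called, where 8.04% of all genes were. Nrg2 was 91.5, 89.9 and 87.9 CPM after LPA and 69.8, 68.3 and 68.4 CPM after vehicle. The groups lay far apart relative to their spread, and the call held in each of 15 alternatives (0.40, SE 0.07, adjusted p = 0.00148). Nrg1 was 527, 465 and 580 against 325, 430 and 432 CPM, without overlap (0.42, SE 0.10, adjusted p = 0.0131). Without LPA library 3, or with DESeq2, Nrg1 was not called. Erbb3 was low, at 3.68, 4.63 and 5.91 against 8.33, 9.97 and 8.58 CPM (-0.93, SE 0.22, adjusted p = 0.0105), and the call was lost without LPA library 1 or vehicle library 2. Erbb3 was also lower without overlap in other inhibitory neurons (2.12 against 8.38 CPM, 11 against 41 UMIs). In endothelial cells it was lower without overlap too (2.58 against 9.57 CPM, 5 against 15 UMIs). In both it did not pass the filter on low counts, so no test was made. Erbb3 was lower without overlap, and tested but not called, in meningeal cells (6.76 against 11.3 CPM) and other neurons (4.03 against 5.49 CPM), as means of 3 libraries. Among the 22 cell types its mean was higher after LPA only in neuroblasts (6.43 against 5.43 CPM) and excitatory neurons (5.47 against 5.41 CPM). The summed CPM of the 12 neuronal RNAs in astrocytes was 2679 to 2931 after LPA and 2393 to 2613 after vehicle, with Meg3 the 1 of 12 called (0.36, adjusted p = 0.00390), and its part in the ligand differences was not tested. The myelin RNA Mbp was lower in astrocytes after LPA, at 268 to 316 against 344 to 430 CPM (-0.40, adjusted p = 0.00402). At the ratio of Erbb3 to Mbp in myelin-forming and mature oligodendrocytes, that drop would come with a drop of 1.92 CPM in Erbb3, which is 45.4% of the observed difference. The part of oligodendrocyte RNA in the Erbb3 difference was not tested.

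Astrocytes fell into 3 clusters, led by Grin2c (a glutamate receptor subunit), Slc6a11 (a GABA transporter) and Gfap (the intermediate filament of reactive astrocytes). The Gfap-led cluster, whose other leading genes were Myoc, Thbs4 and C4b, made up 25.6%, 25.3% and 26.5% of astrocytes in LPA libraries and 10.7%, 12.7% and 11.9% in vehicle libraries. Gfap itself was higher in astrocytes after LPA (1.37, adjusted p = 1.94e-08), so these shares are given without a test. Nrg1 in the Gfap-led cluster was 1190, 1056 and 1457 CPM after LPA and 745, 1400 and 1421 CPM after vehicle, so those groups overlapped (0.13, adjusted p = 0.747). It differed by -0.15 in the Grin2c-led and -0.01 in the Slc6a11-led cluster. With every cluster held at its vehicle level, the LPA libraries' own mix gave a log2 difference of 0.45 for Nrg1 and 0.31 for Nrg2, where 0.41 and 0.38 were observed over all astrocytes. Held at the vehicle mix, -0.10 and -0.01 remained. In the vehicle Gfap-led cluster Nrg1 stood at 50.6% and Nrg2 at 68.3% of its level in neurons, above all 12 neuronal RNAs. Of these 12, Meg3 rose by 0.38 there after LPA, and Snap25 (-0.57) and Snhg11 (-0.39) fell.

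Erbb4 moved inside the Gfap-led cluster. It was 541, 528 and 422 CPM after LPA and 1019, 854 and 920 CPM after vehicle, with no overlap (-0.81, SE 0.11, adjusted p = 4.80e-05). This was the 1 of 6 genes called there, where 8.83% of all genes were called, and the call held in 12 of 12 alternatives. In the Grin2c-led cluster 0 of 7 genes were called by edgeR (3 at an unadjusted p under 0.05, 0 by DESeq2, 2.40% of all genes), with Erbb4 at -0.04. In the Slc6a11-led cluster, where Erbb4 was highest, 0 of 7 were called (2 at an unadjusted p under 0.05, 0 by DESeq2, 0.343% of all genes), with Erbb4 at -0.01. Mbp in the Gfap-led cluster was 283 to 336 against 397 to 643 CPM, and at the oligodendrocyte ratio this corresponds to 23.9% of the Erbb4 difference. The same ratio gave 188.9% of the small difference in the Grin2c-led and 77.3% in the Slc6a11-led cluster. The part of oligodendrocyte RNA was not tested. Genes that lead the astrocyte clusters moved within it too: Slc6a11 was 185 to 211 against 249 to 362 CPM (-0.56, adjusted p = 0.00533), Grin2c 106 to 117 against 38.7 to 76.7 CPM (0.91, adjusted p = 0.00194) and Gfap 776 to 938 against 533 to 612 CPM (0.65, adjusted p = 0.000456). In vehicle libraries Erbb4 was 2320.6 ± 81.5 CPM in the Slc6a11-led and 455 ± 25.1 CPM in the Grin2c-led cluster, and the part of such a shift in the Erbb4 difference was not tested. Over all astrocytes Erbb4 was not called (-0.22, adjusted p = 0.154).

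**Figure D4:**
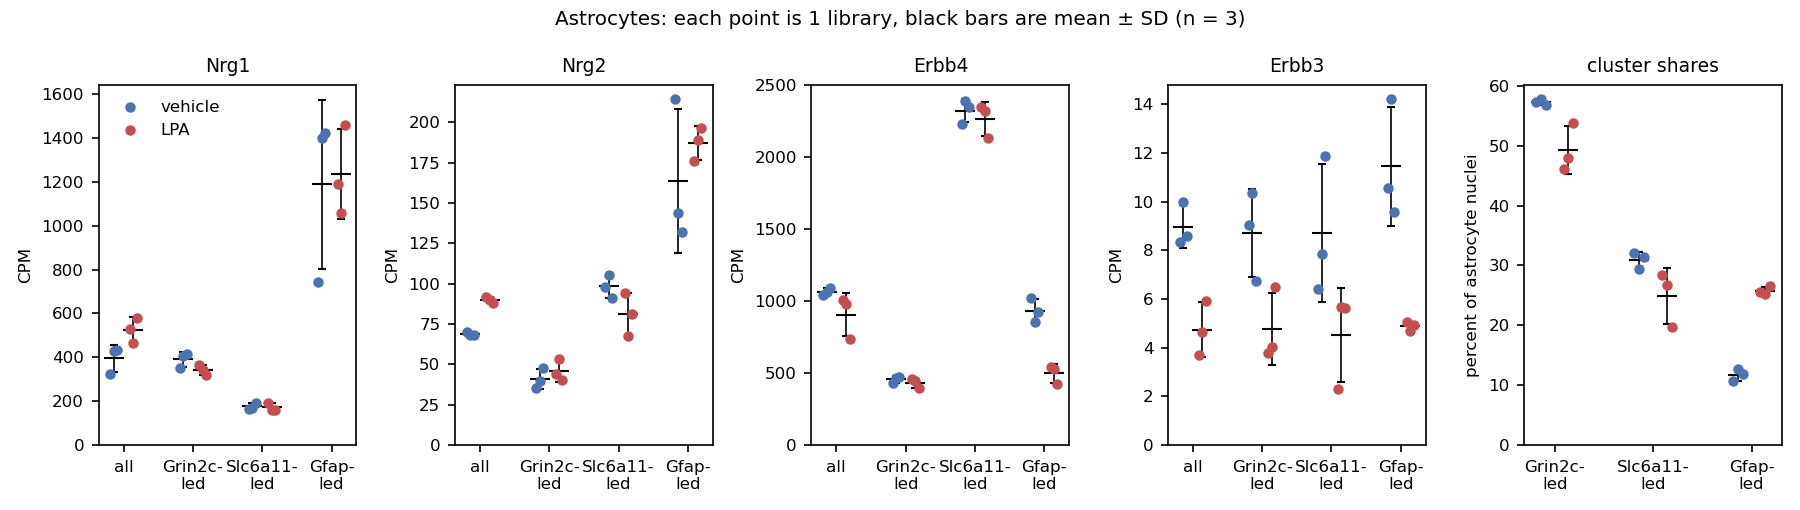
CPM per library (points, with bars for mean ± SD) of Nrg1, Nrg2, Erbb4 and Erbb3 in all astrocytes and in the Grin2c-led, Slc6a11-led and Gfap-led clusters, and the share of each cluster among astrocytes in percent. Erbb4 is separated between LPA and vehicle in the Gfap-led cluster, whose share is larger in all 3 LPA libraries.

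In ciliated ependymal cells, which line the ventricles, Nrg1 was higher and Erbb4 lower after LPA, so 2 of the 6 genes tested were called where 3.70% of all genes were. Nrg1 was 1199, 1042 and 1370 CPM after LPA and 906, 796 and 907 CPM after vehicle, with no overlap (0.46, SE 0.11, adjusted p = 0.0264). The call was lost without LPA library 1, LPA library 3 or vehicle library 2 and with doublet calls left out. The 12 neuronal RNAs summed to 3122 to 3873 CPM after LPA and 3394 to 4814 CPM after vehicle, and Gria1, the 1 called, fell (-0.69, adjusted p = 0.0118). Gfap was 53.0 to 63.4 CPM after LPA and 15.7 to 21.6 CPM after vehicle in these sums (1.69, adjusted p = 0.000299), while 14 other astrocyte markers summed to 2363 to 3083 and 2232 to 2676 CPM. The Gfap-led astrocytes held 1234.2 ± 205 CPM of Nrg1 after LPA, and their part in the ependymal Nrg1 difference was not tested. Erbb4 was 721, 701 and 712 against 799, 1149 and 1115 CPM (-0.53, SE 0.12, adjusted p = 0.0211). It was lost without LPA library 2, LPA library 3, vehicle library 2 or vehicle library 3 and without the mitochondrial limit, where the log2 fold change was -0.33. Mbp fell with it, from 952 to 1289 CPM in vehicle libraries to 368 to 599 CPM in LPA libraries (-1.22, adjusted p = 2.91e-05). At the oligodendrocyte ratio of Erbb4 to Mbp, that drop corresponds to 306 of the 310 CPM of Erbb4. In Grin2c-led astrocytes the same ratio gave -45.3 CPM, where -24.0 CPM was observed. The part of oligodendrocyte RNA in the ependymal Erbb4 difference was not tested. Nrg3 was 592, 515 and 694 against 376, 442 and 505 CPM, not called (0.45, adjusted p = 0.0679).

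Microglia, the resident immune cells of the brain, had 1 call among 5 genes tested, where 1.69% of all genes were called. Their Erbb4 was 471, 539 and 492 CPM after LPA and 680, 725 and 700 CPM after vehicle, with no overlap (-0.51, SE 0.13, adjusted p = 0.0142). The call was lost without any 1 of the LPA libraries, without vehicle library 2 and with no filter on low counts. Mbp was 458 to 584 against 659 to 872 CPM in these nuclei, and at the oligodendrocyte ratio that drop corresponds to 57.2% of the Erbb4 difference. The part of oligodendrocyte RNA in it was not tested. Gfap was 22.2 to 43.8 against 6.02 to 8.36 CPM (1.93, adjusted p = 0.0472), and the 14 astrocyte markers summed to 1229.5 to 1451 against 1096 to 1548 CPM, which overlapped. In vehicle library 3 of microglia 1 UMI equals 8.23 CPM, so the vehicle Gfap values rest on few UMIs. Nrg1 in vehicle microglia stood at 11.0% of its neuronal level, with 7 of the 12 neuronal RNAs at or above it. It was 337, 355 and 352 CPM after LPA and 235, 311 and 231 CPM after vehicle, without overlap and not called. The 12 neuronal RNAs summed to 3209 to 3407 against 3360 to 3952 CPM in microglia. The part of free neuronal RNA in the Nrg1 level was not tested.

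Neuroblasts, the immature neurons, gave the largest difference among the calls. Erbb4, known for its part in their migration, was 4752, 3855 and 2921 CPM after LPA and 1764, 1936 and 1428 CPM after vehicle (1.15, SE 0.21, adjusted p = 0.0250), the 1 of 5 genes called where 0.509% of all genes were. The groups did not overlap, but the numbers of nuclei were uneven, at 126, 234 and 211 in LPA libraries and 63, 121 and 501 in vehicle libraries. The call was lost without LPA library 1, LPA library 2, vehicle library 2 or vehicle library 3, with sex as a covariate and without the mitochondrial limit. Nrg1 went the other way, at 933, 710 and 1061 against 1898, 1271 and 1105 CPM, and was not called (-0.66, adjusted p = 0.239).

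**Figure D5:**
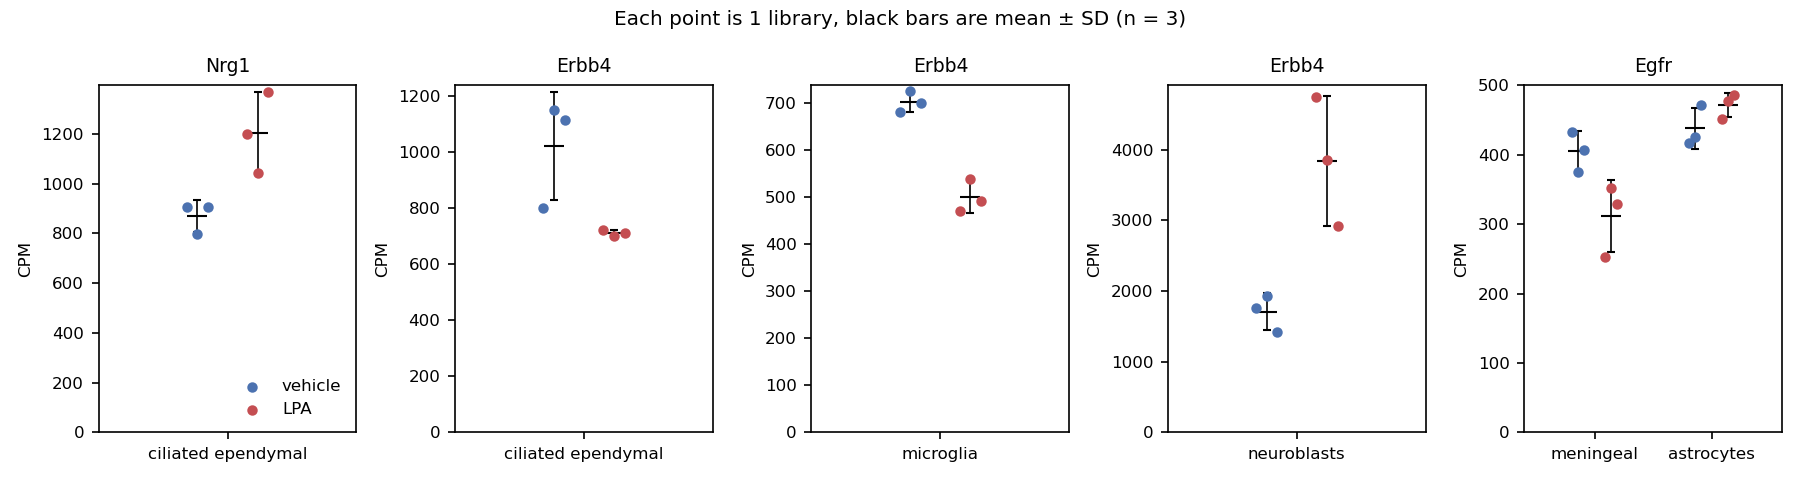
CPM per library (points, with bars for mean ± SD), LPA and vehicle, of Nrg1 and Erbb4 in ciliated ependymal cells, Erbb4 in microglia and neuroblasts, and Egfr in meningeal cells and astrocytes. Erbb4 is lower after LPA in ependymal cells and microglia and higher in neuroblasts.

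Egfr differed in its response between meningeal cells and astrocytes. It was 253, 353 and 329 CPM after LPA and 433, 375 and 406 CPM after vehicle in meningeal cells (-0.36, adjusted p = 0.130), where 0 of the 7 genes were called and 1.01% of all genes were. In astrocytes it was 452, 478 and 485 against 416, 425 and 472 CPM (0.12, adjusted p = 0.324). The difference between the cell types was itself called, at -0.49 (SE 0.11, adjusted p = 0.00710), where 1.72% of genes were. It was lost without LPA library 1 (adjusted p = 0.0872). This was the 1 call among 20 such differences. The Slc47a1-led and Gm6260-led nuclei, where Egfr was highest, were kept apart from the meningeal cells and were not part of this comparison. Between ependymal cells and astrocytes 2.66% of genes differed in response and none of the 7, with Erbb4 at -0.29 (adjusted p = 0.302). Between mature oligodendrocytes and OPC 0.167% did and none of the 6 tested, with Erbb4 at -0.16 (adjusted p = 0.689). Over the 2 comparisons without a call, 2 of 13 differences had an unadjusted p under 0.05.

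In the 11 other groups outside the lineage, and in meningeal cells, edgeR called 0 of 60 pairs (7 at an unadjusted p under 0.05, 0 by DESeq2). Few genes of any kind were called in these 11: 0.705% in Slc47a1-led nuclei, 0.382% in Gm6260-led nuclei, 0.257% in excitatory neurons, 0.214% in pericytes, 0.175% in macrophages, 0.165% in Dpp4-led nuclei, 0.151% in striatal projection neurons, 0.0953% in endothelial cells, 0.0898% in other inhibitory neurons, 0.0714% in other neurons and 0.0397% in choroid plexus epithelium. Among the pairs tested, which had passed the filter on low counts, the widest differences were those of Egfr. They were -0.96 in endothelial cells (adjusted p = 0.389) and 0.81 in striatal projection neurons (adjusted p = 0.638). In macrophages Egfr was 588, 151 and 181 CPM after LPA and 614, 360 and 732 CPM after vehicle, which overlapped (-0.83, adjusted p = 0.690). In the Slc47a1-led nuclei, where Egfr was highest, it was 1272, 1609 and 1896 against 1616, 1674 and 1681 CPM. Egfr was 1346, 1399 and 1910 against 1329, 1273 and 1399 CPM in the Gm6260-led nuclei. In the Dpp4-led nuclei it was 446, 537 and 735 against 509, 415 and 439 CPM. These groups were named apart from the meningeal cells, although Slc47a1 was on the meningeal marker list. Nrg1 in meningeal cells differed by 0.38 (adjusted p = 0.228).

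Of 69 other genes of the pathway, in 6 lists (other EGF-family ligands, ligand-cleaving proteases, receptor inhibitors and ligases, adaptors, PI3K, Akt and MAP kinases, and genes induced by ERK as feedback), 62 were tested in astrocytes, and 5 were higher and 1 lower after LPA. That is 9.68% called, near the 8.04% of all genes. The immediate-early gene Fos rose from 4.92 ± 1.27 to 18.8 ± 2.99 CPM (1.91, adjusted p = 8.86e-06). Stat3, a transcription factor also downstream of cytokine receptors, rose from 100.2 ± 3.74 to 138.7 ± 9.61 CPM (0.49, adjusted p = 0.000239). Shc3, an adaptor of activated receptors, rose from 208.5 ± 5.70 to 255.4 ± 10.4 CPM (0.31, adjusted p = 0.00381). Errfi1, an inhibitor of EGFR family kinases, fell from 18.8 ± 1.13 to 10.6 ± 0.82 CPM (-0.80, adjusted p = 0.00109). The median log2 fold change of the 62 was 0.06, against -0.01 for all genes. In the Gfap-led cluster 8 of 56 rose and 1 fell, 16.1% against 8.83% of all genes, with Fos at 2.90, Shc3 at 0.64 and Stat3 at 0.56, and Pik3r3, a PI3K regulatory subunit, fell by 0.48. In the Grin2c-led cluster 4 of 61 rose and 0 fell, 6.56% against 2.40% of all genes.

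In other cell types few pathway genes passed. In ependymal cells Shc3 rose from 46.0 ± 11.7 to 117.0 ± 25.1 CPM (1.32, adjusted p = 0.000611), and Cblb, a ubiquitin ligase of receptor kinases, fell from 139.0 ± 14.7 to 96.7 ± 10.6 CPM (-0.55, adjusted p = 0.0384). That is 3.70% of the 54 tested, equal to the 3.70% of all genes. In meningeal cells Pik3r3 (0.55), Adam19, a metalloprotease that can cleave neuregulin (0.89), and Lrig1, which limits ErbB receptors (0.72), rose, 3 of 57 tested. That is 5.26%, against 1.01% of all genes. In neuroblasts Shc3 fell by 1.29 (adjusted p = 0.0280), the 1 of 49, which is 2.04% against 0.509% of all genes. In mature oligodendrocytes Pik3r3 was among the genes that rose (0.34, adjusted p = 0.00929), where 3.64% of the 55 tested were called against 0.892% of all genes. In the 5 earlier stages edgeR called 0 of 245 pairs, with 21 at an unadjusted p under 0.05 and 1 by DESeq2.

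The pooled lineage again looked different from its stages, with 13 of 62 pathway genes higher and 4 lower, 27.4% against 11.7% of all genes. Shc4 rose from 46.6 ± 3.19 to 79.0 ± 2.61 CPM (0.75, adjusted p = 1.08e-05), Spred2, a brake on Ras signalling, by 0.67 and Shc3 by 0.70. Erbin (-0.35), Hras (-0.46) and Adam19 (-0.29) were among those that fell. Of 10 feedback genes tested, 4 rose, and their median log2 fold change was 0.47 against -0.01 for all genes. Of the 12 neuronal RNAs, 3 rose in the same sums. None of these genes was called in the 5 stages before the mature stage, and the stage shares given above moved with them.

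The genes whose levels across the 22 cell types were most like each member are given as a description. The 22 means come from the same 3 vehicle libraries and share their depth and free RNA. Over 15587 genes, Nrg1 was closest to Ptprn2 (Pearson r = 0.943), Arpp21 (0.942) and Lrrc7 (0.936), and Nrg2 to Sept3 (0.919), Ptprn2 (0.912) and Unc79 (0.909), genes of neuronal levels. Nrg3 was closest to its antisense gene Nrg3os (0.991), then to Tenm1 (0.963) and Lrfn5 (0.957), and Egfr to its antisense gene Egfros (0.977), then to Slc7a2 (0.913) and Pdha1 (0.868). Erbb2 was closest to Ppic (0.902), Slc7a2 (0.898) and Mxra8 (0.896). Erbb3 was closest to Ermn (0.919) and Mog (0.915), both genes of myelinating oligodendrocytes, and to Galnt6 (0.908). Erbb4 was closest to Sox2ot (0.929), Gm42695 (0.817) and Cux2 (0.814).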

How the data were processed

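The authors ran Cell Ranger 4.0.0 against mm10 with whole transcribed spans as features, which includes introns, and the deposited matrices hold raw UMI counts per gene and barcode. Nuclei were kept from 300 genes upward, with a mitochondrial share of UMIs up to 1% and no more UMIs than 1.5 interquartile ranges above the upper quartile of their library. They were clustered with scanpy 1.11.5 (3000 variable genes, 40 principal components, Leiden resolution 1) and named from marker lists. The oligodendrocyte lineage was clustered again without marker, member or pathway genes. Names rebuilt here may differ from those of the study. Scrublet called 17.0% to 20.4% of barcodes doublets. Clusters in which such calls or markers of 2 classes prevailed stayed unnamed, and single calls were left out only as an alternative. UMIs were summed per library and cell type with at least 10 nuclei in each library, filtered on low counts, scaled by TMM and tested with edgeR 4.0.16 (quasi-likelihood) on all libraries of that cell type, and with DESeq2 1.42.0 or with sex, read from Xist and Y-linked genes, as alternatives. Differences between cell types were fitted as an interaction. Antisense overlaps, positions and the sequences came from mm10 with GENCODE M21. Replicates differed from each other by more than counting noise (chi-square per degree of freedom 13.3 to 26.8). Smooth muscle cells and Gpnmb-led nuclei had too few nuclei in a library and were not tested.

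All 7 members were named in the text, with at most the 3 called pathway genes of lowest adjusted p in each direction per cell type and the 3 genes most like each member. The values of 1 pathway gene are not reported here. Members and lists were chosen with earlier results of these data known. Pooled stages, separate astrocyte clusters and the removal of shared barcodes were added after the data were seen. Intervals and counts near 0 cover the spread between libraries or counting error only.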

Additional observations from a re-analysis of the deposited data

Results flagged for a closer look

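The response of Egfr differed between meningeal cells and astrocytes, by the test of the difference itself. The log2 fold change of LPA over vehicle was lower in meningeal cells by 0.49 on the log2 scale (difference -0.49, SE 0.11, adjusted p = 0.00710, edgeR). Egfr was lower than every vehicle library in all 3 LPA libraries of meningeal cells, and it was higher than every vehicle library in 2 of the 3 of astrocytes. Over 9 alternatives the difference ranged from -0.62 to -0.40 and was called in 8 of them. Slc47a1-led and Gm6260-led nuclei, where Egfr was highest, were kept apart from the meningeal cells, and Egfr was not called in them.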

How the results depend on the processing

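Against 7 calls, DESeq2 gave 6, RLE factors 7, no filter on low counts 9, sex as a covariate 6, no mitochondrial limit 6, Scrublet calls left out 7, Leiden resolution 2 8 and shared barcodes left out 7. With 1 library left out, calls ranged from 2 (without vehicle library 2) to 9 (without vehicle library 1), with 3 without LPA library 3 and 4 without LPA library 1. No called difference turned its direction. Calls between cell types ranged from 0 (without LPA library 1) to 1. The drop in the share of myelin-forming oligodendrocytes was -3.90 percentage points, -7.72 without Scrublet calls and -8.10 at Leiden resolution 2, and that of mature oligodendrocytes -11.8, -7.63 and -7.61, where the cause was not tested. Groups named by a leading gene, astrocyte clusters and the pooled lineage were not rebuilt in these settings or without the mitochondrial limit. Same-numbered libraries correlated at 0.218, 0.413 and -0.106, so the numbers do not pair them, and not every library was closest to its own number. The replicate block gave 8 calls. Depth limits Erbb2 everywhere and Erbb3 outside oligodendrocytes.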

Other observations

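Gpnmb-led nuclei were found in LPA libraries at 99, 157 and 157 nuclei and in vehicle libraries at 0, 0 and 1, so no test was made. In them Erbb4 was 447, 439 and 447 CPM, Nrg1 204, 193 and 215 CPM and Egfr 4.33, 33.1 and 34.4 CPM. Erbb2 had UMIs in 1 of the 3 libraries.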
